A study of Mus musculus with 12 samples.

Results

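Sertoli cells are the somatic nurse cells of the testis cord, and the 10 genes described here are ones they are known for: Sox9, Amh, Clu, Wt1, Gata4, Inha, Inhbb, Fshr, Dhh and Kitl. The members were taken by symbol, each matched to its Ensembl identifier in GENCODE release M21 (GRCm38), and all 10 were found among the 35666 genes of the deposited gene table. The RNA came from male germ cells isolated from newborn testes (postnatal day 0, P0) of mice carrying the Mvh-Venus transgene, Mvh being the mouse Ddx4 gene of germ cells. The 6 libraries compared were 3 from Morc1 (+/-) animals, called het, and 3 from Morc1 (-/-) animals, called KO. Both groups carry the reporter, and no library has 2 intact Morc1 alleles. The labels give neither the kind of Morc1 allele, the strain nor the number of animals behind a library, so p-values measure only the spread between these libraries, which may be technical. Of the 12 samples of the series, the 6 from postnatal day 3 were not analysed here. The question was whether Sertoli cell RNA in the sorted cells differed by genotype, and how large it was beside germ cell RNA.

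In the fetal and newborn testis, germ cells lie inside cords formed by Sertoli cells, which touch each of them. The transcription factors WT1 and GATA4 act early in the somatic gonad, and SOX9, switched on downstream of SRY, drives Sertoli cell fate and activates Amh. Sertoli cells then signal outward through secreted hormones and membrane-bound ligands, to germ cells, Leydig cells and the pituitary. Germ cells are not known as a main source of these RNAs, so in a germ cell sort they are commonly read as a measure of somatic carry-over. In bulk RNA, fewer Sertoli cells and less RNA per Sertoli cell cannot be told apart.

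The libraries held 28363683 to 32816861 recovered gene reads. The targeted gene Morc1, in the sequence of replicates 1, 2 and 3, had 7248, 7485 and 4126 normalized counts in het, and 1360.5, 1343 and 1794 in KO. Its KO mean was 23.8% of the het mean, and the groups did not overlap. The values given below are normalized counts, which are reads divided by 1 size factor per library. The least abundant member, Fshr, had at least 69 recovered reads in every library, so that no member was near the limit of 3 reads used as a floor. All 10 members passed the filter of a mean of at least 10 normalized counts. Het replicate 3 stood apart from the other libraries in markers of another cell type: 7 Leydig cell genes summed to 9237 normalized counts per kb of exon in it and to between 157 and 372 in the other 5. Its part in the results was not tested. Some results are given with and without it, and comparisons given only once include it and may depend on it.

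RefSeq promoter windows (GRCm38.p6) were matched for 5 of the 10 genes, namely Inha, Inhbb, Fshr, Dhh and Kitl. Sox9, Amh, Clu, Wt1 and Gata4 were not matched. The 250 bases before the start were searched on both strands for motifs of factors known in Sertoli cells: the E-box CACGTG, the GATA motif (AGATAA or AGATAG or TGATAA or TGATAG), the SF-1 motif CAAGGTCA, the SOX motif AACAAT and the cyclic AMP response element TGACGTCA. The 3 windows shown are those of the 2 genes with a match and of Dhh, the 1 matched gene whose KO libraries all lay below the het libraries. Capitals mark the matches.
Fshr, minus strand, chr17:89200676-89200925: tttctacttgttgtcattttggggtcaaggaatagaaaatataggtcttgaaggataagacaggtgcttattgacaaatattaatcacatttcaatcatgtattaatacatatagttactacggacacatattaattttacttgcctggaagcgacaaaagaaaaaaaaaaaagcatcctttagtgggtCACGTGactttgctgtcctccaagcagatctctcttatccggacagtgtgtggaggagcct
Inhbb, minus strand, chr1:119422249-119422498: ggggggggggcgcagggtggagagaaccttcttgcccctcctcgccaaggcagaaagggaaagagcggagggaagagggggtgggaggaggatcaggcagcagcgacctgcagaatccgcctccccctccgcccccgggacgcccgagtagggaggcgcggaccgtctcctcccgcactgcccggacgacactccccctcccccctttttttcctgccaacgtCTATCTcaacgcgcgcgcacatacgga
Dhh, minus strand, chr15:98898541-98898790: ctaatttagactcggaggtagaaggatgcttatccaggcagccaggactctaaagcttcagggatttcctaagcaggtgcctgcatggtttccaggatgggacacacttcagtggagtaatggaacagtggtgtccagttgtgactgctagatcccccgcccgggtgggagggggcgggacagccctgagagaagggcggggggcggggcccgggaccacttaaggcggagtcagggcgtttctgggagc
In Fshr the E-box lies from base -61 to base -56 before the start. It is a match to letters that 6.02% of all 32851 windows of this length hold. In Inhbb the match, CTATCT from base -27 to base -22, is a GATA motif read on the other strand, which 26.5% of windows hold. The windows of Inha, Dhh and Kitl held none of these letters. Windows were placed by the RefSeq start, which for Inha and Kitl lies inside the GENCODE gene. The Inha window (chr1:75507359-75507608) is wholly within that gene, and the Kitl window (chr10:100015571-100015820) crosses its GENCODE start. The SF-1 motif (1.33% of all windows), the SOX motif (9.42%) and the cyclic AMP response element (1.55%) had no match in the 5, and no letters of 1 motif overlapped another. A match is a description of letters, and no binding was measured.

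All 10 genes had a lower mean in KO than in het, and none passed an adjusted p under 0.05 in the limma fit across 26005 genes. KO means were between 42.7% of the het mean, for Amh, and 80.9%, for Wt1. The share of all tested genes called lower by that rule was 0.0423%, and 0.431% were called higher. By an unadjusted limma p under 0.05, 4 of the 10 were lower in KO (Sox9, Amh, Clu and Dhh), against 2.44% of tested genes. In the same 4 every KO library lay below every het library, which held for 5.57% of tested genes. A negative log2 fold change was found in 10 of 10 members and in 51.6% of tested genes. Members had a median of -0.69 on this scale, and all tested genes one of -0.02. With edgeR on recovered reads 0 of the 10 passed, and with DESeq2 1 did (Clu, adjusted p 0.0477, against 0.0477 to 0.708 over the 19 alternatives). DESeq2 called more genes than limma, at 65 of the 26005 lower and 400 higher. These genes were proposed with earlier results of these libraries known, so the counts describe the members and are not a test of them.

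The 3 transcription factors of the list were Sox9, Wt1 and Gata4. Sox9 (ENSMUSG00000000567, plus strand of chromosome 11 from 112782224 to 112787760) encodes the factor that commits the cells to the Sertoli fate. Replicates 1, 2 and 3 gave 2243, 1569 and 2535 normalized counts for het and, in the same sequence used for all genes below, 1014, 1524 and 1343 for KO. The groups did not overlap, but het replicate 2 and KO replicate 2 were nearly level. Means were 2115 ± 496 for het and 1294 ± 259 for KO (SD, n = 3 each), the latter 61.2% of the former, and limma put the difference on the log2 scale at -0.70 (SE 0.26, adjusted p 0.579).

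Wt1 (ENSMUSG00000016458, plus strand of chromosome 2 from 105126529 to 105173616) encodes a zinc finger factor needed to keep Sertoli cell identity. It read 1615, 926 and 1595 normalized counts across the het libraries, against 984, 1044 and 1318 in KO. Het replicate 2 was the lowest of all 6 libraries, so the groups overlapped. Wt1 had the smallest difference of the members, and limma put the difference on the log2 scale at -0.27 (SE 0.27, adjusted p 0.913).

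Gata4 (ENSMUSG00000021944, minus strand of chromosome 14 from 63198922 to 63271692) encodes a GATA factor that also acts in Leydig cells. It read 632, 536 and 1425 normalized counts across the het libraries, against 599.6, 502 and 383 in KO. Het replicate 3 stood well above every other library, and the remaining 5 overlapped. In the limma fit the KO to het difference on the log2 scale was -0.69 (SE 0.37, adjusted p 0.813), and -0.26 without het replicate 3 (adjusted p 0.872).

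Amh, Inha and Inhbb encode secreted proteins of the TGF-beta family. AMH makes the Müllerian ducts regress, INHA is the alpha subunit of the inhibins, and INHBB is the beta B subunit shared by inhibin B and activin B. Amh (ENSMUSG00000035262, plus strand of chromosome 10 from 80805243 to 80807648) read 1158, 724 and 1393 normalized counts across the het libraries, against 526, 618 and 253 in KO. No KO library reached the lowest het library, and KO replicate 3 was the lowest of all. The means were 1092 ± 339 in het and 466 ± 190.0 in KO (SD, n = 3 each), the largest relative difference of the 10 genes. By limma, KO against het gave a log2 fold change of -1.27 (SE 0.37, adjusted p 0.329).

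Inha (ENSMUSG00000032968, plus strand of chromosome 1 from 75507077 to 75510366) read 8999, 6074 and 15833 normalized counts across the het libraries, against 4378, 5974 and 8045 in KO. KO replicate 3 exceeded het replicate 2, so the groups overlapped. In the limma fit the KO to het difference on the log2 scale was -0.68 (SE 0.34, adjusted p 0.799), and -0.31 without het replicate 3 (adjusted p 0.849).

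Inhbb (ENSMUSG00000037035, minus strand of chromosome 1 from 119415465 to 119422248) read 317, 281 and 1752 normalized counts across the het libraries, against 177, 653 and 433 in KO. A single library, het replicate 3, set its het mean, and KO replicates 2 and 3 were above het replicates 1 and 2. By limma, KO against het gave a log2 fold change of -0.54 (SE 0.68, adjusted p 0.935). Without het replicate 3 the sign turned, to 0.31 (SE 0.49, adjusted p 0.911), and the ratio of means went from 0.538 to 1.41.

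Clu (ENSMUSG00000022037, plus strand of chromosome 14 from 65968483 to 65981547) encodes clusterin, a secreted chaperone glycoprotein that Sertoli cells make in quantity. It read 9396, 7425 and 12728 normalized counts across the het libraries, against 4902, 4247 and 6324 in KO. All KO libraries lay below all het libraries, with means of 5157 ± 1062 in KO and 9849 ± 2680.4 in het (SD, n = 3 each). By limma, KO against het gave a log2 fold change of -0.92 (SE 0.25, adjusted p 0.253), the smallest adjusted p of the 10.

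Dhh and Kitl encode ligands that Sertoli cells present to their neighbours. Desert hedgehog signals to Leydig and peritubular cells, and KIT ligand signals to KIT on germ cells and Leydig precursors. Dhh (ENSMUSG00000023000, minus strand of chromosome 15 from 98891152 to 98898540) read 606, 382 and 812 normalized counts across the het libraries, against 273, 319 and 316 in KO. The KO libraries lay close together and below each het library, with means of 303 ± 25.6 in KO and 600.5 ± 215 in het (SD, n = 3 each). In the limma fit the KO to het difference on the log2 scale was -0.92 (SE 0.31, adjusted p 0.467). The exons of Dhh share 546 bases with Rhebl1 on the same strand and 1107 with the antisense gene Gm49442. Rhebl1 had a mean of 1269 normalized counts and Gm49442 one of 8.13, and strand handling is not given in the sources used here, so the split of reads at this locus is uncertain. None of the other 9 members overlapped another gene of the annotation.

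Kitl (ENSMUSG00000019966, plus strand of chromosome 10 from 100015630 to 100100416) read 1032, 783 and 1131 normalized counts across the het libraries, against 646, 697 and 847 in KO. Only KO replicate 3 against het replicate 2 broke the separation of the groups. By limma, KO against het gave a log2 fold change of -0.42 (SE 0.24, adjusted p 0.826).

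Fshr (ENSMUSG00000032937, minus strand of chromosome 17 from 88984952 to 89200675) encodes the receptor through which follicle-stimulating hormone acts on Sertoli cells. It read 129, 110.1 and 363 normalized counts across the het libraries, against 68.3, 82.7 and 169.5 in KO. Het replicate 3 was again the highest library and the groups overlapped. In the limma fit the KO to het difference on the log2 scale was -0.80 (SE 0.51, adjusted p 0.855), and the ratio of KO to het means went from 0.533 to 0.894 without that library.

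**Figure D1:**
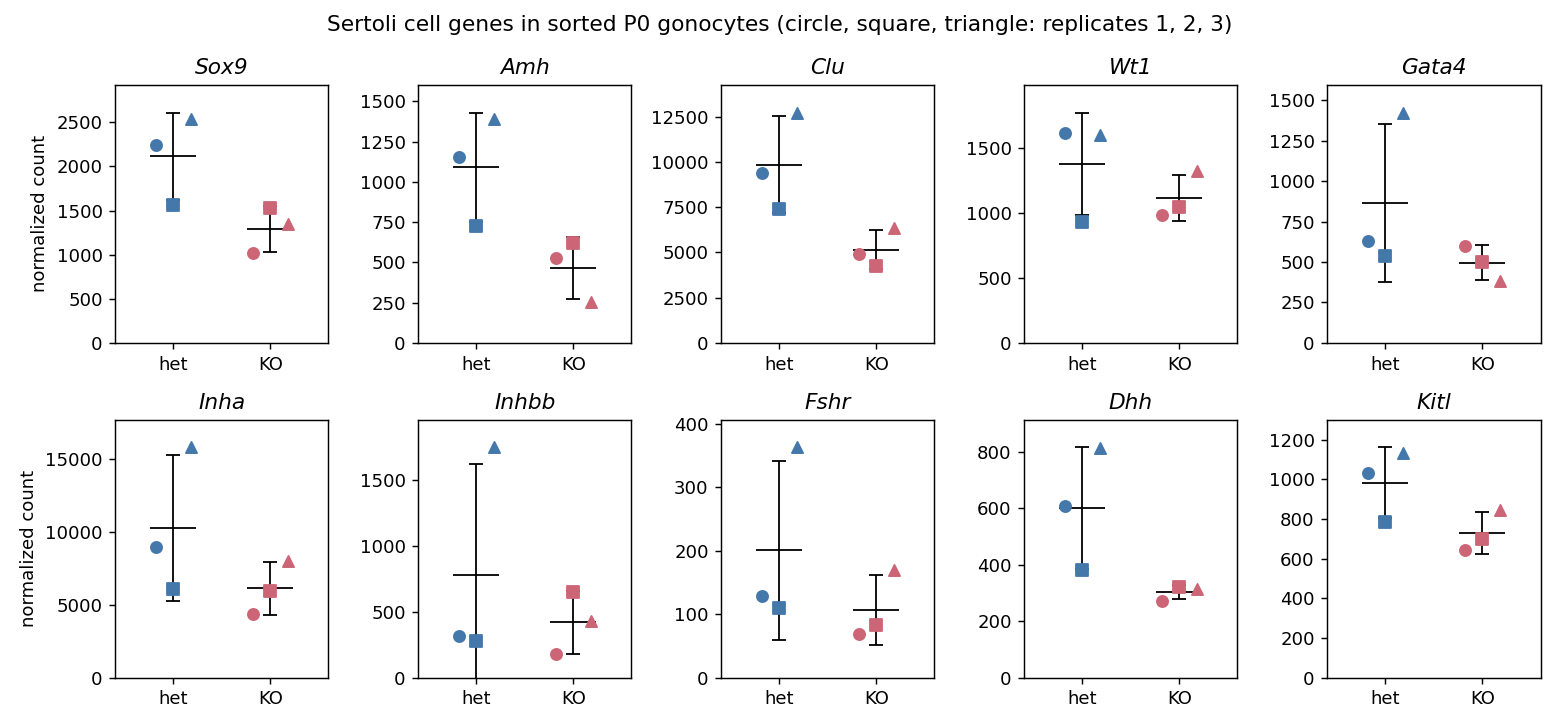
Normalized counts (vertical axes, linear from 0) of the 10 Sertoli cell genes in the het and KO libraries, with circles, squares and triangles for replicates 1, 2 and 3, and the mean ± SD in black (the lower bar of Inhbb is cut at 0). Sox9, Amh, Clu and Dhh have no KO library above a het library, and the triangle of het replicate 3 is the highest point in 9 of the 10 panels.

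Several libraries held the same rank for most of the members. Het replicate 3 was the highest library for 9 of the 10 members, Wt1 being the exception. Het replicate 2 was the lowest het library for all 10, and KO replicate 1 the lowest of all 6 for 6. After centring each gene, the mean log2 value of the members was 0.27, -0.19 and 1.00 across the het libraries, and -0.59, -0.25 and -0.24 across the KO libraries. Het replicate 2 was therefore near the KO libraries, and het replicates 1 and 3 stood above every KO library. Over the 6 libraries, all 45 pairs of members had a positive Pearson r of their log2 values, from 0.37 (Amh with Fshr) to 0.96 (Inha with Fshr), with a median of 0.78. These points share their libraries, and with het replicate 3 highest for 9 of the 10 members, this 1 library can make r positive. No r was computed without it, so the values are a description only.

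**Figure D2:**
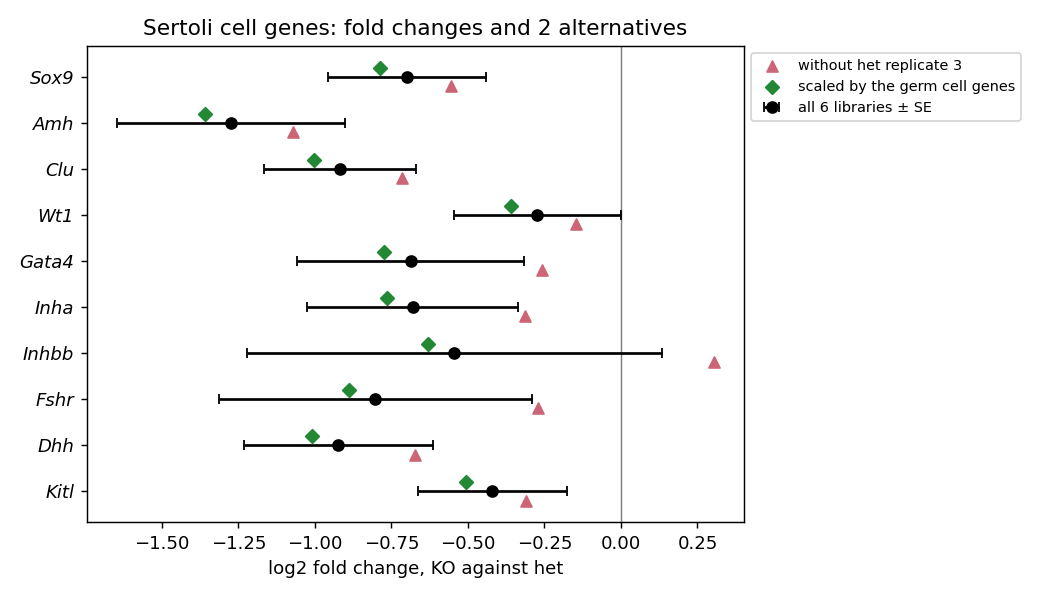
Log2 fold change of KO against het (horizontal axis) for each Sertoli cell gene, from limma on log2(value + 1) with all 6 libraries (black, ± SE), without het replicate 3 (triangles) and with each library scaled by the germ cell genes (diamonds). The members sit between -1.27 and -0.27 with all libraries, and Inhbb alone crosses to above 0 without het replicate 3.

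Without het replicate 3, 9 of 10 members had a negative log2 fold change, as did 52.7% of the 25938 genes tested in that fit. The median was -0.31 for the members and -0.03 for those genes. Sox9, Amh, Clu and Dhh then had limma log2 fold changes of -0.56, -1.07, -0.72 and -0.67, with adjusted p-values of 0.748, 0.612, 0.487 and 0.713. An unadjusted limma p under 0.05 with a lower KO level was found for 2 members (Amh and Clu) and for 2.16% of those genes.

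Levels were compared between genes per kb of exon, as normalized counts divided by the length of the union of a gene's exons. Inha was the most abundant member in both groups, at 6984 in het and 4158 in KO, followed by Clu at 2866 and 1501. In each group the libraries of Inha did not overlap those of Clu, nor those of Clu the next gene. In het, Amh (654) and Sox9 (512) came next with overlapping ranges, and in KO their order was the reverse, at 279 and 313, again with overlap. Wt1, Gata4, Inhbb, Kitl and Dhh held the lower ranks, from 223 to 136 in het and from 180.0 to 68.8 in KO. Neighbours among them overlapped, except Wt1 above Gata4 in KO. Fshr had the lowest means, at 85.0 and 45.3, and its range overlapped that of Dhh in both groups.

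Germ cell genes gave the level against which these RNAs were read. Ddx4, the RNA helicase gene behind the reporter, read 28528, 31038 and 17605 normalized counts across the het libraries, against 28977, 20304 and 28851 in KO. Per kb it stood at 8535 in het and 8641 in KO, Dazl (an RNA-binding protein of germ cells) at 14826 and 15529, Piwil2 at 5554 and 5999, Piwil4 at 712 and 528 and Mael at 23984 and 19153. The last 3 act in the piRNA pathway. Per kb, Inha was thus of the same order as Ddx4 and Piwil2, and Clu was below them and above Piwil4. Among the 20 germ cell genes of the list, 12 log2 fold changes were positive and 8 negative, and their median was 0.03. None passed an adjusted p under 0.05 with limma, and 1 had an unadjusted p under 0.05. That gene, chosen here after its value was seen, was Lin28a (log2 fold change 0.80), and it was the 1 germ cell gene with every KO library above every het library, which 7.17% of tested genes had.

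Summed per kb, the 10 Sertoli cell genes came to 10934, 7711 and 17448 across the het libraries and to 5509, 6701 and 8470.0 across the KO libraries. KO replicate 3 exceeded het replicate 2. Means were 12031 ± 4961 for het and 6893 ± 1490 for KO (SD, n = 3 each), a ratio of 0.573, and of 0.739 without het replicate 3. Inha alone made up 6984 of the het mean and 4158 of the KO mean, and without Inha the ratio was 0.542. The 20 germ cell genes summed to 81575, 86696 and 63232 for het and to 85011, 63063 and 73940 in KO, a ratio of means of 0.959. Het replicate 3 and KO replicate 2 had the lowest germ cell sums.

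Per 100 of the germ cell sum, the Sertoli cell sum was 13.4, 8.89 and 27.6 across the het libraries, against 6.48, 10.6 and 11.5 in KO. Its size depends on the genes chosen for each sum, so it is not a share of cells or of RNA. The values of this ratio overlapped, with het replicate 2 below KO replicates 2 and 3. The means were 16.6 ± 9.76 in het and 9.52 ± 2.67 in KO (SD, n = 3 each), a KO to het ratio of 0.572. Without het replicate 3 the het mean was 11.1 and the ratio 0.854. Scaling every library by its germ cell genes, an alternative chosen after the data were seen, moved the median log2 fold change of all tested genes from -0.02 to -0.10 and that of the members from -0.69 to -0.78. In that fit 0 members were called by limma. An unadjusted limma p under 0.05 with a lower KO level was found for 4 members and for 870 of the 26005 genes.

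**Figure D3:**
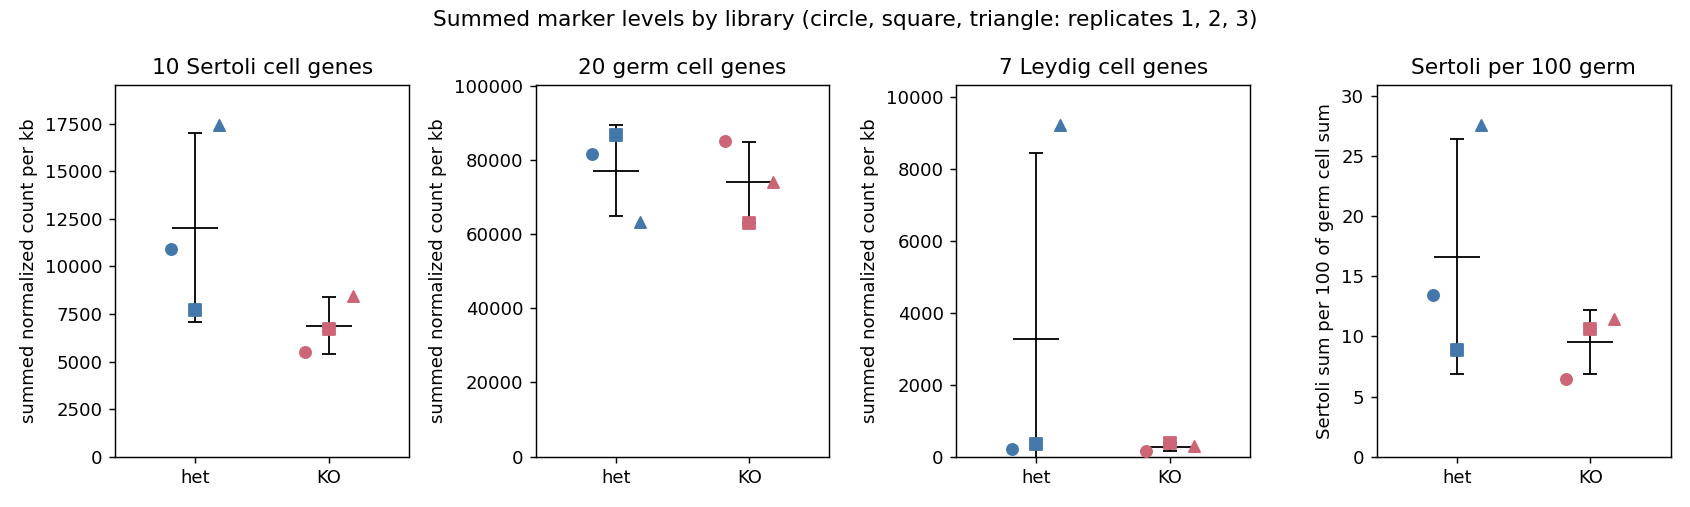
Summed normalized counts per kb of exon of the Sertoli, germ and Leydig cell genes, and the Sertoli sum per 100 of the germ cell sum, by library (linear axes from 0), with the mean ± SD in black (the lower bar of the het Leydig sum is cut at 0). Het replicate 3 has the highest Sertoli sum (17448) and Leydig sum (9237) and, with KO replicate 2, the lowest germ cell sums.

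Of 22 other genes known from Sertoli cells, 20 had a negative log2 fold change and 2 a positive one, with a median of -0.61. None passed an adjusted p under 0.05 with limma (smallest 0.252). An unadjusted limma p under 0.05 was found for 6, of which 5 were in the negative direction, as were 2.44% of tested genes. Sox8, the SOX9 relative, read 761, 644 and 756 normalized counts across the het libraries, against 421, 1121 and 249.9 in KO, with overlap in both directions. Nr0b1, an orphan nuclear receptor gene, read 328, 277 and 516 for het, against 332, 149 and 446 for KO. Cst9, a cystatin gene of fetal Sertoli cells, read 857, 682 and 2701 for het, against 392, 818 and 1719.6 for KO. The genotypes overlapped for these 3, and het replicate 3 was the highest library for Nr0b1 and Cst9.

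Every KO library lay above every het library in 1 of the 22 and below in 3, against 7.17% and 5.57% of tested genes. The 3 lower genes, named after their values were seen, were Rhox5 (a homeobox gene), Trf (transferrin) and Shbg (sex hormone-binding globulin). Their log2 fold changes were -0.87, -1.11 and -1.06, with limma adjusted p-values of 0.252, 0.391 and 0.441. Rhox5 read 1349, 1299 and 1347 for het, against 589, 897 and 738 for KO, so that here het replicate 3 was level with the other het libraries. The 22 genes summed per kb to 0.583 of het in KO, and to 0.828 without het replicate 3.

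Receptors, partners and regulators of the members were counted from a list of 25, of which 24 were matched (Sry was not). Of these, 11 had a positive and 13 a negative log2 fold change, 0 passed an adjusted p under 0.05 with limma and 0 had an unadjusted p under 0.05. Kit, the receptor of KIT ligand, read 2759, 3098 and 1902 normalized counts across the het libraries, against 4073, 1694 and 3283 in KO. Amhr2, the AMH receptor of type II, had 625, 519 and 942 in het and 419.5, 441 and 607 in KO, and Bmpr1a, a type I receptor of the same pathway, 1205, 1320.4 and 1560.5 against 1023, 1752 and 1041. The genotypes overlapped for all 3. The median log2 fold change of the list was -0.01, near the -0.02 of all tested genes.

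Markers of other cell types were set beside these values, and their part in the results was not tested. The 7 Leydig cell genes summed per kb to 225, 357 and 9237 in het and 157, 372 and 308 in KO, so that without het replicate 3 the ratio of means was 0.958. The first 3 of them were read in every library. Insl3, a peptide hormone gene of Leydig cells, read 0.954, 8.69 and 474 normalized counts across the het libraries, against 0.989, 13.4 and 10.8 in KO. Cyp17a1, a steroidogenic enzyme gene, read 9.54, 43.5 and 3469 against 0.989, 84.7 and 14.7, and Cyp11a1, which starts steroid synthesis, 277, 300.4 and 10074 against 136, 332 and 292. Het replicate 3 was far above the other 5 libraries for all 3 genes, and those 5 overlapped between the genotypes. Cyp11a1 was well above the floor of 3 reads in each of them. Of the 7 genes, 5 had a negative and 2 a positive log2 fold change, and 0 had an unadjusted limma p under 0.05. Het replicate 3 was the highest library for 6 of the 7. In 1 of the 7 every KO library lay above every het library, as in 7.17% of tested genes.

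The summed levels of the other lists were compared per kb in the same way. Of 5 endothelial genes 4 had a positive log2 fold change. Their sum was 410 to 533 in het and 655 to 809 in KO, without overlap. Pecam1, Cdh5 and Kdr had log2 fold changes of -0.26, 0.27 and 0.04. The 1 gene of the 5 with every KO library above every het library, named after its values were seen, was Tek, a receptor kinase gene. It read 834, 1043 and 587 normalized counts across the het libraries, against 2344, 1244 and 2396 in KO (KO to het ratio 2.43, limma adjusted p 0.201). Without Tek, an alternative chosen after the data were seen, the other 4 genes summed per kb to 356, 285 and 285 in het, and to 229, 391 and 300.1 in KO, with overlap.

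The 5 myoid genes summed to 1006 to 1222 in het and 1131 to 1348 in KO, with log2 fold changes of 0.27, 0.08 and 0.53 for Acta2, Myh11 and Tagln. The 5 interstitial genes summed to 469.8 to 503 and 416 to 726, with 0.14, -0.35 and 0.13 for Pdgfra, Tcf21 and Nr2f2. The 4 macrophage genes summed to 146 to 159 and 124 to 168, with 1.13, -0.94 and -0.31 for Adgre1, Csf1r and Ptprc. None of the genes of these 3 lists passed an adjusted p under 0.05 with limma, and 0 had an unadjusted p under 0.05. In 1 of the 5 myoid genes every KO library lay above every het library, as in 7.17% of tested genes. In 1 of the 4 macrophage genes every KO library lay below, as in 5.57% of tested genes.

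The sums of the remaining 3 lists overlapped between the genotypes as well. The sum of 3 erythroid genes was 599 to 1152 in het and 627 to 1419 in KO (log2 fold changes 0.24, -0.46 and -0.11 for Hba-a1, Hbb-bt and Alas2). For 4 genes of surface and rete epithelium it was 660 to 767 and 482 to 711 (-0.16, -0.78 and 0.40 for Krt19, Upk3b and Lhx9). For 3 granulosa cell genes, markers of the ovarian counterpart of Sertoli cells, it was 115 to 290 and 152 to 166 (0.00, -0.10 and -0.30 for Foxl2, Rspo1 and Wnt4). Here too 0 genes had an adjusted and 0 an unadjusted limma p under 0.05. In 1 of the 4 genes of surface and rete epithelium every KO library lay below every het library, as in 5.57% of tested genes.

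**Figure D4:**
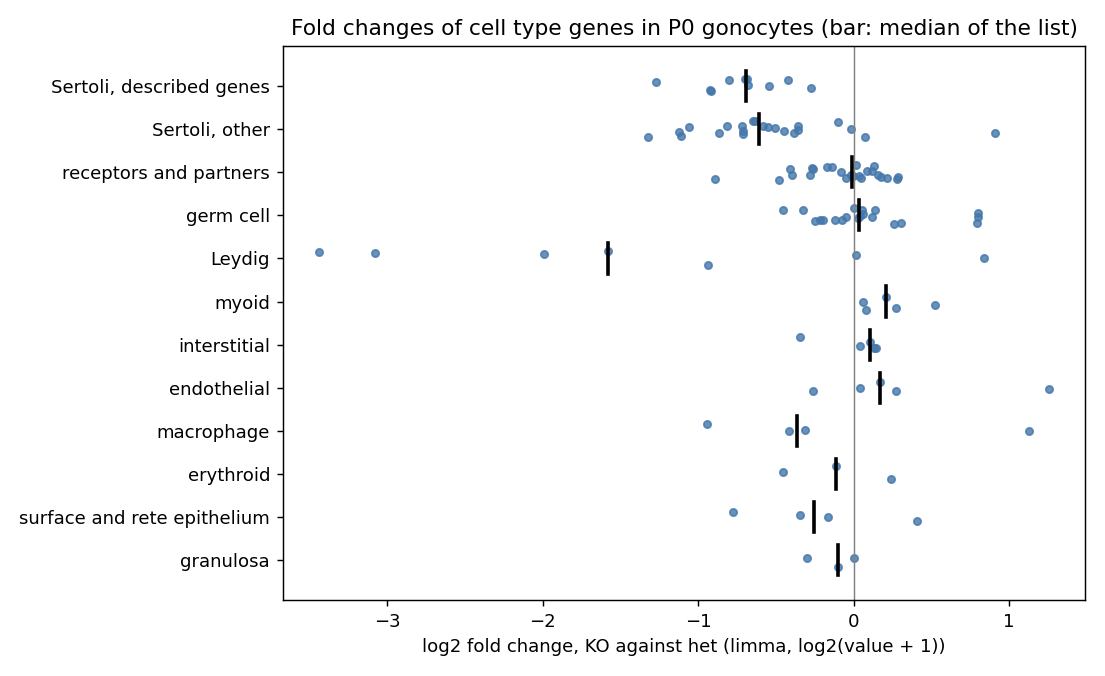
Log2 fold change of KO against het (horizontal axis, limma on log2(value + 1), 6 libraries) for each gene of the cell type lists (points, spread vertically at random for visibility), with the median of each list as a bar. The medians are -0.69 for the 10 Sertoli cell genes, -0.61 for the 22 other Sertoli cell genes, -1.58 for the Leydig genes and 0.03 for the germ cell genes.

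The genes with the most similar pattern were sought among 15517 others with a mean of at least 100, by the Pearson r of their log2 values with the centred mean of the members over the 6 libraries. The closest were Zfp775 and Ndufv3, at r = 0.995 and 0.994, then Ptgds (0.994), Sparc (0.991), Folr1 (0.987), Akr1cl (0.983), Slc37a2 (0.982), St3gal6 (0.981), Adam23 (0.980) and Aldh1a1 (0.979). Ptgds, which encodes a prostaglandin D synthase, was the 1 gene of the 10 on the list of other Sertoli cell genes, reading 1347, 825 and 2211 normalized counts across the het libraries, against 630.3, 801 and 892 in KO. Median r was 0.80 for the 20 other Sertoli cell genes with such a mean, 0.87 for 5 Leydig genes, -0.20 for 19 germ cell genes and -0.02 for all 15517. With 6 libraries and 1 far from the rest, such r values are a description of these libraries.

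Copies of transposable elements (TEs) at the same loci gave another readout. The TE table listed 86 copies within 10 kb of 9 of the members, 65 of them inside a member gene. Of these 86, 14 had a mean of at least 10 normalized counts and were tested, 8 inside. Among the 14, 8 had a negative and 6 a positive log2 fold change. By limma 1 rose at an adjusted p under 0.05 and 0 fell, which is 7.14% of the 14. Of all 49781 tested copies, 15.6% were called higher and 0.735% lower, so the share at the Sertoli cell genes was not above the background.

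The copy that rose is 6764 bp long and lies on the minus strand of chromosome 17 from 89147641 to 89154404, as the deposited table gives it, within an intron of Fshr and on the strand of that gene. It read 26.4, 25.8 and 63.3 normalized counts across the het libraries, against 217, 186 and 177 in KO. Every KO library was above every het library, and het replicate 3 was the highest het library here too. Means were 38.5 ± 21.5 for het and 193 ± 20.7 for KO (SD, n = 3 each), a ratio of 5.02. On the log2 scale limma gave 2.42 (SE 0.43, adjusted p 0.00297). The Fshr gene itself had a log2 fold change of -0.80 that did not pass. The call held in the 10 other fits run for this copy, with adjusted p-values from 0.000502 to 0.0270. How reads matching several copies were counted is not given in the sources used here, so the level of a single copy is uncertain.

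**Figure D5:**
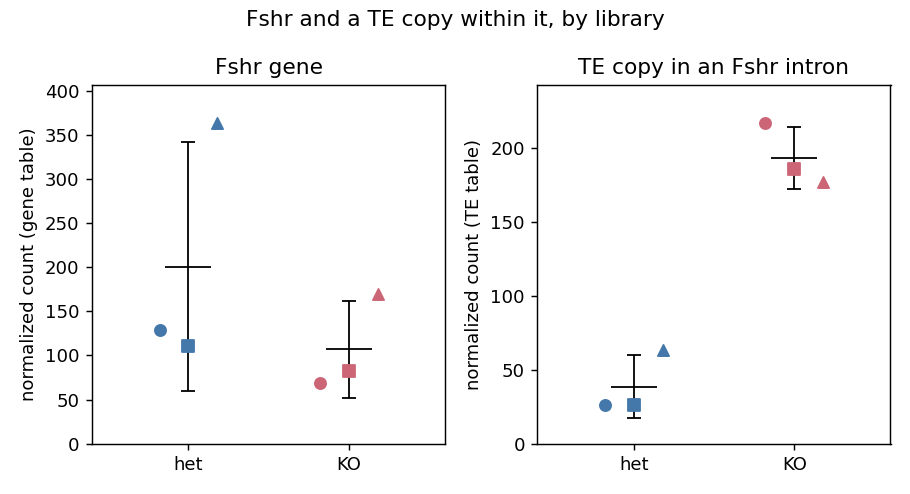
Normalized counts by library (linear axes from 0) of the Fshr gene in the gene table and of the TE copy within an Fshr intron in the TE table, with circles, squares and triangles for replicates 1, 2 and 3 and the mean ± SD in black. The TE copy is at 26.4, 25.8 and 63.3 in het and at 217, 186 and 177 in KO, while the gene overlaps between the genotypes.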

How the data were processed

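RNA from sorted P0 male germ cells was amplified by a SMART-seq cDNA method for small inputs, per the labels' protocols. The submitters' processing notes name cutadapt 1.18, HISAT2 2.1.0, featureCounts 1.5.2, DESeq2 1.26.0 and the build GRCm38, with no role or order. The deposited values of both tables are a signal: reads per gene, or per TE copy, that the authors divided by 1 size factor per library, per the table's name for genes and from the values for TE copies. In each column 100% of the values were whole multiples of 1 step (within 0.01 of a read), and reads were recovered from these steps. Columns were assigned to samples by genotype and replicate number, and the P0 stage of the TE columns by the table's name.

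Genes (35560 of 35666 matched to GENCODE M21) and TE copies whose mean reached 10 entered limma 3.58.1 in R 4.3.3 (trend, two-sided, Benjamini-Hochberg over all features) on log2(value + 1), a scale that understates changes of low features. The test was checked on simulated data with the same dispersion for every gene and no outlying library. That check does not show how the test behaves with a library like het replicate 3. Alternatives were edgeR 4.0.16 and DESeq2 1.42.0 on recovered reads (KO replicate 1 included, although its step is close to 1), other pseudocounts, filters and scalings, the replicate block and leaving out each library. Sums use the union of exons. The members and lists were chosen with earlier results of these data known. Named genes were all members, the first 3 of each other list (5 for germ cell genes) and the 10 most similar genes. Lin28a, Rhox5, Trf, Shbg and Tek fall outside this rule and were chosen after their values were seen. No molecular identifiers are named in the labels, so reads may include PCR copies. The values of 1 gene of the lists are not reported here.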

Additional observations from a re-analysis of the deposited data

How the results depend on the processing

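With 19 alternatives for each of the 10 Sertoli cell genes, 189 of 190 log2 fold changes stayed negative. The exception was Inhbb, which ran from -1.01 to 0.31 when single libraries were left out and was positive without het replicate 3. The count of 189 is not a measure of stability. In limma, another filter, no trend or the replicate block leaves a member's fold change as it was, so its sign could not turn. Other pseudocounts and scalings use the same 6 libraries. The count of called members stayed at 0 except with DESeq2 (1, Clu), and was 0 with each library left out in turn. When single libraries were left out, the ratio of summed levels ran from 0.486 to 0.739 and that of Sertoli to germ cell sums from 0.464 to 0.854. The highest in each was without het replicate 3. Each move was smaller than the spread between libraries carried into the ratio (SD 0.267 and 0.372). That spread includes het replicate 3 itself, so a smaller move does not show that the ratios are stable. The TE copy in Fshr kept its call in each fit run for it. The members had at least 69 reads in each library.

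Over all genes, 112 were higher and 11 lower. A pseudocount of 0.1 gave 70 and 5, one of 10 gave 177 higher, limma without trend gave 3 lower, and DESeq2 gave 400 and 65. With the replicate block limma gave 64 and 5 and edgeR 38 and 0, and called 0 members in each. Leaving out a library gave 17 to 105 higher and 1 to 7 lower genes. The higher count was 66 without het replicate 1, 23 without KO replicate 1, 66 without KO replicate 2 and 17 without KO replicate 3, and the lower count was 1 when het replicate 1, or KO replicate 1, or KO replicate 3 was missing, 3 without het replicate 2 and 5 without KO replicate 2. Same-numbered libraries share a number only: their deviations correlated at 0.14, -0.16 and -0.04 across genes, and not every library correlated best with its own number.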
